A study of Mus musculus with 18 samples.

Results

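The genes described here are the urea cycle and periportal amino acid genes: Nags, Cps1, Slc25a15, Otc, Ass1, Slc25a13, Asl, Arg1, Gls2 and Hal. They were taken from the deposited count table by gene symbol, and 10 of 10 were found among its 24062 symbols. Expression was measured by RNA-seq of whole liver, kidney and lung of C57BL/6 mice in 6 groups of tissue and genotype, with 3 libraries in each group and 18 in all. CCNE-TA mice carried a tetracycline-inducible transgene for Ccne1, the cyclin E1 that drives entry into DNA replication, together with rtTA, the activator that doxycycline switches on. TA mice carried rtTA alone and were the controls. Both genotypes received doxycycline from week 3 of life and were killed at 4 months, so the controls share the activator and the drug. The labels name neither the promoter that drives rtTA nor the sex of the mice, and they do not say that libraries of a group came from separate mice, so the p-values measure the spread between these libraries.

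The urea cycle disposes of the ammonia that amino acid breakdown releases, and the whole cycle runs in the hepatocytes around the portal vein. NAGS makes N-acetylglutamate, which CPS1 needs as activator to turn ammonia and bicarbonate into carbamoyl phosphate in the mitochondrion. OTC joins that to ornithine, brought in by the carrier SLC25A15, and citrulline leaves. In the cytosol ASS1 joins citrulline to aspartate, supplied by the carrier SLC25A13 (citrin), ASL splits off arginine, and ARG1 releases urea and regenerates ornithine. GLS2, the liver glutaminase, and HAL, the first enzyme of histidine breakdown, feed ammonia and glutamate to the same periportal cells. Kidney makes arginine from citrulline with ASS1 and ASL, and has little of the mitochondrial steps.

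On the mm10 build, in GENCODE M21, Nags lies at chr11:102145513-102149477, Cps1 at chr1:67123026-67231259, Slc25a15 at chr8:22375551-22398597, Otc at chrX:10252305-10321024, Ass1 at chr2:31470207-31520672 and Slc25a13 at chr6:6041218-6217173. Asl lies at chr5:130011258-130029247, Arg1 at chr10:24915221-24927484, Gls2 at chr10:128194457-128210004 and Hal at chr10:93488768-93519304. All are annotated as protein-coding.

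Total counts ran from 26214869 to 61954486 in liver, from 20352770 to 43202066 in kidney and from 41597623 to 155323865 in lung. Ccne1, the check of the labels, stood at 210.1 to 352.6 CPM (counts scaled to library size within a tissue) in liver CCNE-TA against 2.05 to 2.82 in liver TA, at 484.6 to 896.7 against 1.57 to 2.58 in kidney and at 65.7 to 125.5 against 1.04 to 6.02 in lung, so all 9 CCNE-TA libraries were above the TA libraries of their tissue. Tissue markers fitted the tissue labels: the summed level of 10 hepatocyte markers was 106300 to 202010 CPM in liver, 620.8 to 807.6 in kidney and 392.0 to 3281 in lung. Groups were uneven in Xist, which is transcribed from the inactive X of females: it was at 0.227 to 3.10 CPM in liver CCNE-TA 3, TA 2 and TA 3 and at 401.9 to 780.9 in the other liver libraries, whereas in kidney and lung only the libraries numbered 3 were low, in both genotypes. Liver TA 2 and TA 3 also had 0 counts of Kap, a kidney transcript that stood at 13.1 to 25.6 CPM in the other 4 liver libraries. Summed pancreatic acinar markers reached 49.3 to 178.2 CPM in 2 of the liver TA libraries and 0.990 to 1.45 in the other 4 liver libraries. Lung CCNE-TA 1 stood apart from the other 5 lung libraries, with summed macrophage markers at 6329 CPM against 778.9 to 1035, neutrophil markers at 520.9 against 21.3 to 88.4 and lung epithelium markers at 50453 against 80938 to 130090. The part of these differences in the results below was tested only as stated there.

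In control mice 9 of the 10 members had their highest level in liver, all except Ass1. Levels for this comparison are CPM per kilobase of exon, on one scale for the 9 TA libraries. The length counts all annotated exon bases of a gene, and the order of members given below holds for this length only. Arg1 has 2228 such bases and Asl 4831, against 1477 and 2413 in their longest coding transcripts, while Cps1 has 5555 by both. By transcript length Arg1 and Asl would stand higher relative to Cps1. Per kilobase, Cps1 led in TA liver at 1650 ± 355 (SD, n = 3) and Arg1, the last step, followed at 1321 ± 36.6. Asl at 272.4 ± 19.0, Gls2 at 232.6 ± 50.2 and Otc at 214.5 ± 26.6 came next, and the libraries of neighbours in this trio overlapped. The carriers Slc25a15 at 144.9 ± 29.4 and Slc25a13 at 116.1 ± 21.1 overlapped each other, and Slc25a13 overlapped Hal at 112.5 ± 27.2. Nags, whose product is an activator and not a bulk intermediate, was lower at 56.9 ± 5.04 and stood apart from Hal. Ass1 was listed far below all the others, at 0.137 ± 0.035, and it had at most 45 counts in any library of the study. It has a near-identical copy, which is described with the liver values.

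**Figure D1:**
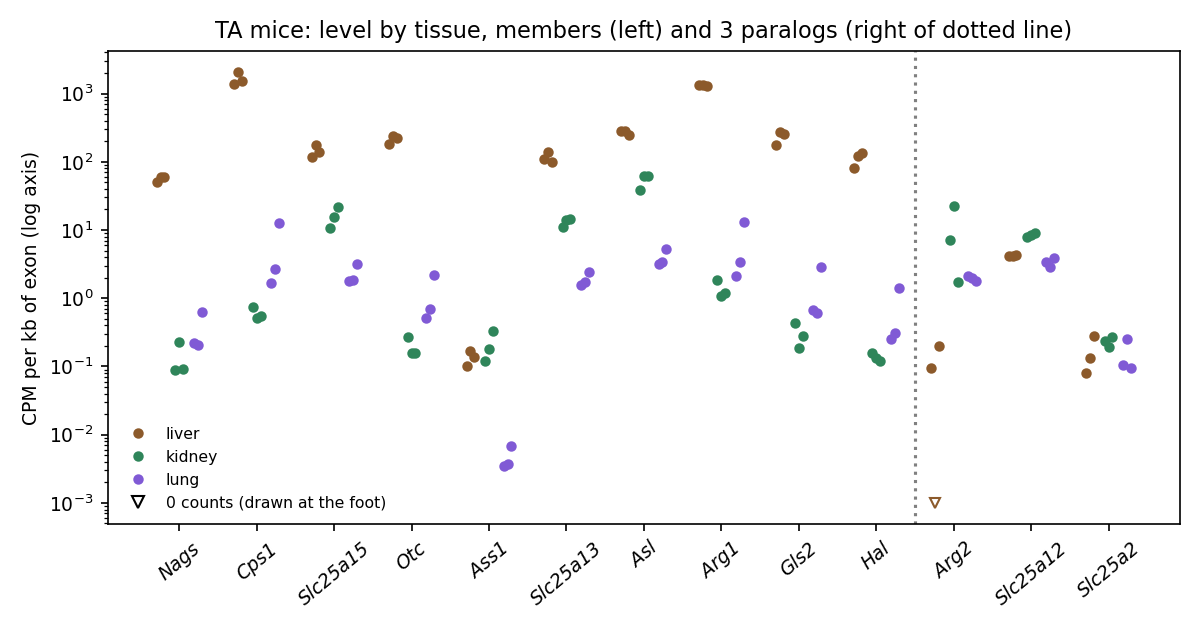
Level in the 9 TA libraries by tissue, as CPM per kilobase of exon on a log axis; each point is 1 library, the members stand left of the dotted line and the paralogs Arg2, Slc25a12 and Slc25a2 right of it, and the open triangle marks a library with 0 counts. Liver points lie highest for 9 of the 10 members, kidney points lie between liver and lung for Asl, Slc25a15 and Slc25a13, and Arg2 and Slc25a12 have their highest points in kidney.

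Tested between tissues, 9 of 10 members were higher in TA liver than in TA kidney (edgeR quasi-likelihood test, Benjamini-Hochberg adjusted p under 0.05), where 30.5% of all genes tested were higher. The log2 difference was 11.42 ± 0.998 (SE) for Cps1, 10.13 for Otc, 9.90 for Arg1, 9.68 for Hal, 9.62 for Gls2 and 8.60 for Nags. It was far smaller for both carriers and Asl, at 3.18 for Slc25a15, 3.15 for Slc25a13 and 2.33 ± 0.29 for Asl. Ass1 was the exception, at -0.64 ± 0.57 (edgeR adjusted p = 0.337). Against TA lung, 10 of 10 members were higher in TA liver, with 34.7% of all genes higher, and log2 differences ran from 4.69 for Ass1 to 8.18 for Cps1. For Ass1 that compares 7 to 9 counts in the TA liver libraries with 1 count in each TA lung library.

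In kidney the carriers and the arginine-forming step stood above the rest. Between TA kidney and TA lung, 4 members were higher in kidney, where 29.3% of all genes were higher: Ass1 with a log2 difference of 5.33 ± 0.72, Asl with 3.78 ± 0.31, Slc25a15 with 2.82 ± 0.35 and Slc25a13 with 2.79 ± 0.23. The Ass1 value rests on 1 count in each TA lung library and 8 to 22 counts in the TA kidney libraries. Per kilobase, Asl led the members in TA kidney at 54.4 ± 13.2, apart from Slc25a15 at 15.98 ± 5.63 and Slc25a13 at 13.1 ± 1.88, which overlapped. The next member, Arg1, was at 1.38 ± 0.42, Cps1 followed at 0.602 ± 0.128, and Gls2, Ass1, Otc, Hal and Nags stood in that order between 0.300 and 0.135, each overlapping the next. Another 5 members were lower in kidney than in lung, where 31.3% of all genes were lower: Cps1 by a log2 difference of -3.25, Otc of -2.56, Hal of -2.27, Gls2 of -2.21 and Arg1 of -2.17. Nags missed the threshold at -1.21 (edgeR adjusted p = 0.0588).

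Those 5 members had no even level in the lung controls. Alb, the albumin transcript of hepatocytes, ranged from 265.4 to 1402 CPM over the lung TA libraries, and Cps1 ranged from 13.9 to 108.2 CPM with it. All members except Ass1 overlapped the next in the lung order, which ran from Arg1 at 6.20 ± 5.98 per kilobase and Cps1 at 5.70 ± 6.16 down to Nags at 0.351 ± 0.235. The part of hepatocyte RNA in the difference between kidney and lung was not tested.

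Of the paralogs of 3 members, 2 ran the other way. ARG2 is the mitochondrial arginase and SLC25A12 the second aspartate-glutamate carrier, and both are known from tissues outside the liver. Per kilobase, Slc25a12 was at 4.17 ± 0.10 in TA liver and 8.41 ± 0.56 in TA kidney, a log2 difference of -1.01 ± 0.15 (edgeR adjusted p = 0.000166). Arg2 was lower in liver by -6.74 ± 1.09 on the log2 scale, with 10.5 ± 10.9 per kilobase in kidney, where its libraries spread from 1.73 to 22.7. Slc25a2, a second ornithine carrier, was low in all 3 tissues, at 0.150 to 0.233 per kilobase, and did not differ past the threshold between any of them.

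Start-site sequence was available for 6 members, from RefSeq on GRCm38.p6, as the 250 bases before the start: Otc, Ass1, Nags, Slc25a15 (with 2 starts), Slc25a13 and Hal. The pair below shows a member with one of the largest differences between liver and kidney and a member that both tissues transcribe, with each CG dinucleotide in capitals.
Otc, chrX:10252055-10252304, plus strand: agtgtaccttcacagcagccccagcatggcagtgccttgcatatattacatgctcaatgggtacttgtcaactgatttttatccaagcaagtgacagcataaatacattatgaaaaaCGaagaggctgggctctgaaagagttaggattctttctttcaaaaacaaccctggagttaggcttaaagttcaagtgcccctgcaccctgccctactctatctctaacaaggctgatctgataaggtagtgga
Slc25a13, chr6:6217174-6217423, minus strand: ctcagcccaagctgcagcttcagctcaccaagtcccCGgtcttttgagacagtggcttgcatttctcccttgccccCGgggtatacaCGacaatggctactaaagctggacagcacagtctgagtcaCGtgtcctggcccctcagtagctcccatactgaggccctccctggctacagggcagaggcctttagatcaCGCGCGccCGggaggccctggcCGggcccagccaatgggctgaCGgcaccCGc
The Otc window held 1 CG and the Slc25a13 window 11, where the median of all 32851 windows was 6 and their quartiles 2 and 16. Hal held 6, Nags 11, Slc25a15 held 11 and 43 at its 2 starts, and Ass1 held 23. Nags therefore combined a log2 difference of 8.60 between liver and kidney with the same CG count as Slc25a13. Motif letters were searched on both strands: C/EBP as TTGCNNAA, HNF4 as CAAAGTCCA, FOXA as TGTTTAC, CRE as TGACGTCA and the TATA box as TATAAA. Only Hal had a match, 1 to C/EBP and 1 to the TATA box, which 9.56% and 12.4% of all windows hold, while 0.384%, 3.17% and 1.55% hold the HNF4, FOXA and CRE letters. These matches are descriptions of the letters and no test of any factor.

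With cyclin E1 induced, the liver members did not move as a block. Cps1 and Slc25a13 fell, Ass1 rose from a few counts, and the other 7 did not pass the test, although Slc25a15 was lower in every CCNE-TA library. That is 3 of 10 members changed, against 28.5% of the 13811 genes tested in liver. One rose, where 13.7% of all genes rose, and 2 fell, where 14.8% fell, so the share was close to the background. The median log2 fold change over the members was -0.21, beside 0.02 over all genes tested. In whole tissue, fewer cells of a type and less RNA per cell cannot be told apart.

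**Figure D2:**
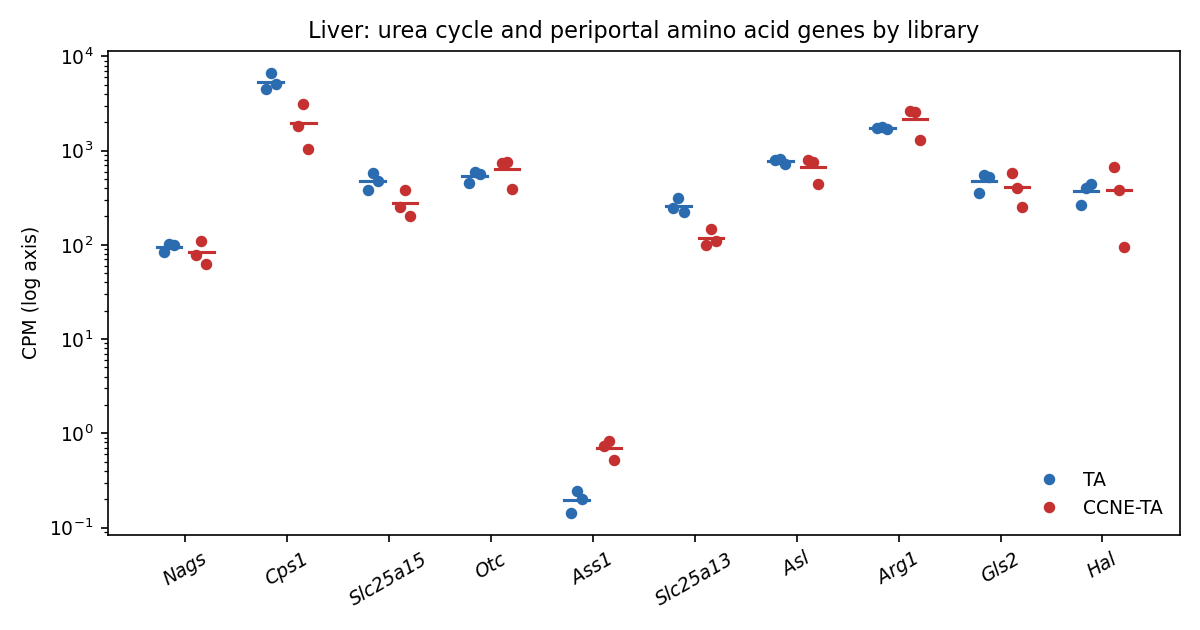
CPM in the 6 liver libraries on a log axis, TA in blue and CCNE-TA in red; each point is 1 library, each bar a group mean, and genes stand in the order of the pathway. Cps1, Slc25a15 and Slc25a13 have all red points below the blue ones, Ass1 has them above at under 1 CPM, and the red points of Hal spread from 94.5 to 672.7.

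Cps1, the entry step, had the highest CPM of the members in TA liver. It was at 1806, 3093 and 1045 CPM in CCNE-TA liver 1 to 3 and at 4461, 6701 and 5061 in TA liver 1 to 3. Every CCNE-TA library was below every TA library, and CCNE-TA 2 came nearest to the controls. It fell 2.73-fold (log2 fold change -1.45 ± 0.42, SE; edgeR adjusted p = 0.034). Relative to Alb the groups also stood apart: Cps1 had 13.8, 27.1 and 14.8 counts per 1000 Alb counts in CCNE-TA liver and 42.0, 68.8 and 72.2 in TA liver. None of the 10 hepatocyte markers passed the test, and their summed level overlapped, at 106300 to 202010 CPM in CCNE-TA and 138830 to 163070 in TA. The Cps1 call passed under 8 of 16 other ways of processing. It failed in 4 of the 6 fits that leave out 1 library, with an edgeR adjusted p of 0.119 where CCNE-TA 1 was omitted and of 0.0556, 0.105 and 0.084 where TA 1, 2 or 3 was. It also failed with the libraries' Xist level in the model (-1.64 ± 0.58, edgeR adjusted p = 0.0821), with a correction for gene length and GC content (-1.21 ± 0.40, edgeR adjusted p = 0.057), in the fit of all 18 libraries (-1.45 ± 0.78, edgeR adjusted p = 0.167) and with liver TA 2 and TA 3 left out (-1.18 ± 0.67, edgeR adjusted p = 0.37). Without single libraries the log2 fold change ran from -1.93 to -1.14.

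Longer genes were lower in CCNE-TA liver as a whole. The median log2 fold change was 0.93 for genes with under 1000 bases of exon, -0.11 for the class of 4000 to 8000 bases that holds Cps1 (5555 bases), and -0.31 above 8000 bases. In that middle class 18.51% of genes fell, and in the class of 2000 to 4000 bases, with Slc25a13 (3798 bases), 9.07% fell. In kidney and lung the medians of the 5 length classes lay between -0.04 and 0.037.

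Nags, the maker of the CPS1 activator, was at 78.2, 109.1 and 62.0 CPM in CCNE-TA liver and 84.6, 101.2 and 100.2 in TA liver. The groups overlapped, and its log2 fold change was -0.20 ± 0.24 (edgeR adjusted p = 0.547). The antisense gene Gm11586 shares 15.6% of Nags exon bases, and as the library kit does not mark strand, reads there cannot be told apart. Car5a, the mitochondrial carbonic anhydrase that gives CPS1 its bicarbonate, fell from 55.1 ± 8.06 to 12.1 ± 6.46 CPM (SD, n = 3) (log2 fold change -2.19 ± 0.36, edgeR adjusted p = 0.00663). Sirt5, a mitochondrial deacylase that acts on CPS1, rose from 9.15 ± 2.59 to 16.5 ± 2.26 CPM (edgeR adjusted p = 0.0374).

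Of the 2 carriers among the members, Slc25a13 was called lower and Slc25a15 was not. Slc25a13 was at 98.8, 148.8 and 110.3 CPM in CCNE-TA liver and at 243.1, 311.7 and 224.9 in TA liver. Its groups stood clear of each other, and it fell 2.18-fold (log2 fold change -1.12 ± 0.24, edgeR adjusted p = 0.013). It passed under 13 of 16 other ways of processing, the most of the 10 members, and failed without CCNE-TA 1 (edgeR adjusted p = 0.067), without TA 2 (0.051) and with TA 2 and TA 3 left out (0.232). Its paralog Slc25a12 fell as well, from 18.1 ± 0.67 to 9.21 ± 1.18 CPM (log2 fold change -0.97 ± 0.18, edgeR adjusted p = 0.0089). Slc25a15 was at 253.3, 383.8 and 202.1 CPM in CCNE-TA liver and 385.6, 582.6 and 475.9 in TA liver. Here the highest CCNE-TA library, 2, almost touched the lowest TA library, 1, and the log2 fold change of -0.78 ± 0.30 missed the threshold (edgeR adjusted p = 0.0795). Slc25a15 passed under 2 of 16 other ways of processing, DESeq2 (adjusted p = 0.0325) and edgeR without CCNE-TA 2 (adjusted p = 0.0263). With the length and GC correction its log2 fold change was -0.55 (edgeR adjusted p = 0.187). With Xist in the model it was -0.78 (edgeR adjusted p = 0.208). Thus 3 of 10 members had all CCNE-TA libraries below all TA libraries, against 24.7% of all genes, and 1 had them above, against 23.2%.

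Otc, which makes citrulline, was at 747.6, 756.6 and 393.3 CPM in CCNE-TA liver and 456.3, 588.7 and 565.5 in TA liver. CCNE-TA 1 and 2 were above all controls and CCNE-TA 3 below them, and the log2 fold change was 0.24 ± 0.30 (edgeR adjusted p = 0.579). Arg1 had the same shape, at 2648, 2568 and 1293 CPM against 1725, 1772 and 1710, and its log2 fold change was 0.32 ± 0.32 (edgeR adjusted p = 0.471). The controls of Arg1 agreed within an SD of 32.5 CPM around 1736, so nearly all of its spread lay among the CCNE-TA libraries. Asl, the arginine-forming lyase, was at 786.7, 754.2 and 446.1 CPM against 785.7, 815.6 and 726.3, and its log2 fold change was -0.23 ± 0.28 (edgeR adjusted p = 0.558).

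Ass1 had few counts, and its coding sequence has a near-identical copy. The processed pseudogene Gm5424 on chr10:62071123-62072362 aligned without gaps to 1240 bases of the 1696-base Ass1 transcript, with all 1236 coding bases among them, at 99.5% identity and with 6 differing bases. Of the 1137 windows of 100 bases in the coding sequence, 54.7% were identical in Gm5424, and of the 1597 windows of the whole transcript 38.9% were, so the other windows differ from the copy. The stretch below covers coding bases 379 to 478 and shows how far apart differences lie, with the differing bases in capitals (T399C and T429C, counted from 1 at the first coding base, Ass1 base first).
Ass1: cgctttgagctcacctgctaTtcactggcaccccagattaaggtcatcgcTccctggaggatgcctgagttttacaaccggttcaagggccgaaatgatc
Gm5424: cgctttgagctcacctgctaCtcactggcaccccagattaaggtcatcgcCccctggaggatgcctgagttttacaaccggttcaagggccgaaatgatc
No library had a count for Gm5424, and Ass1 had 0 to 45 counts. The near-identical haemoglobin genes Hba-a1, Hba-a2, Hbb-bs and Hbb-bt also had 0 counts in all 18 libraries. How reads that align in several places were counted is not given in the sources used here, so the Ass1 level is uncertain, and whether the copy sets it was not tested. No other member had a copy elsewhere in the transcriptome with at least 90% identity over 100 bases, beside the antisense overlap of Nags, which is not a copy.

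As deposited, Ass1 had 29, 35 and 17 counts in CCNE-TA liver and 9, 9 and 7 in TA liver, that is 0.736, 0.821 and 0.521 CPM against 0.143, 0.243 and 0.199. The groups did not overlap, and the log2 fold change was 1.84 ± 0.51 (edgeR adjusted p = 0.0297). The call passed under 5 of 16 other ways of processing, with adjusted p from 0.0214 to 0.262 over all of them, and its log2 fold change was above 0 in each.

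Gls2, the liver glutaminase, was at 576.5, 400.0 and 252.0 CPM in CCNE-TA liver and 355.5, 552.5 and 523.7 in TA liver, and its log2 fold change was -0.22 ± 0.34 (edgeR adjusted p = 0.648). It shares 2.8% of its exon bases with Spryd4 on the other strand. Hal spread most of all members, at 672.7, 386.0 and 94.5 CPM in CCNE-TA liver against 263.5, 402.3 and 441.2 in TA liver. The highest and the lowest of the 6 libraries were both CCNE-TA, and its log2 fold change was 0.06 ± 0.60 (edgeR adjusted p = 0.949). The sign of Hal turned under 5 of its alternatives and that of Gls2 under 2.

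**Figure D3:**
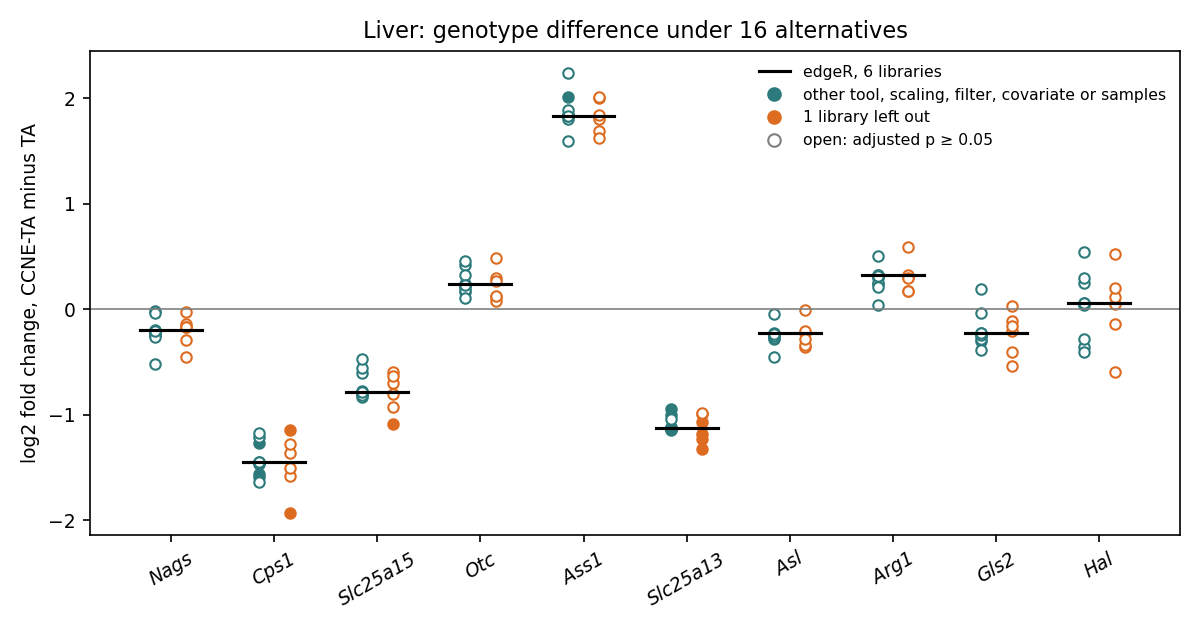
Log2 fold change in liver, CCNE-TA minus TA, for each member under 16 alternatives; black bars are the edgeR result with 6 libraries, green points change the tool, scaling, filter, covariate or samples, orange points leave out 1 library, and open points have an adjusted p of 0.05 or more. Cps1, Slc25a15 and Slc25a13 stay below 0 and Ass1 above it under all 16, while Hal runs from -0.60 to 0.54.

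The members differed from each other in shape over the 6 liver libraries, by the root mean square difference of their mean-centred log2 CPM. Arg1 and Otc were the closest pair at 0.118, followed by Asl and Nags at 0.201, Asl and Gls2 at 0.254 and the carriers Slc25a13 and Slc25a15 at 0.257. Ass1 and Cps1 were the farthest apart at 1.361. Cps1, Hal and Ass1 were the farthest from their fellow members in general, with medians of 0.761, 0.736 and 0.73 to the other 9. By the same measure the genes nearest to Cps1 in liver were Dhdh at 0.134, Abat at 0.143, Cryz and Pccb at 0.149 and Canx at 0.153. These are the smallest of 3581 distances, so they cannot be weighed against the few members, of which Slc25a15 and Slc25a13 were nearest at 0.423. Over all 18 libraries the nearest were genes of secreted liver proteins, Mug1 at 0.371, Serpina3k at 0.417, Plg at 0.455, F2 at 0.554 and Ahsg at 0.566. These distances are descriptions over libraries that share tissue and depth.

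Around the members, 136 genes of 8 related lists were tested in liver, and 26 of them changed, 8 up and 18 down. That is 19.1% changed, beside 28.5% of all genes tested in liver, 5.88% higher beside 13.7% and 13.2% lower beside 14.8%. The number of list genes called varied with the processing. It was 40 with DESeq2, beside 4891 of 18363 genes, and 31 with the length and GC correction, beside 3300 of 13719. With upper quartile scaling it was 25, beside 3977 of 13811, and with Xist in the model 20, beside 2506 of 13811. In the list for ammonia and glutamate handling 1 of 13 rose and 2 fell, with a median log2 fold change of -0.35. Beside Car5a, Glul fell there: this glutamine synthetase of pericentral hepatocytes, which catches the ammonia that the cycle leaves, went from 1162 ± 263 to 621.7 ± 150.8 CPM (log2 fold change -0.90 ± 0.29, edgeR adjusted p = 0.0462). Of 17 genes of arginine, ornithine and polyamine metabolism 2 rose and 4 fell, with a median of 0.13. Odc1, which turns ornithine into putrescine, fell from 105.0 ± 16.5 to 32.9 ± 16.8 CPM (log2 fold change -1.67 ± 0.34, edgeR adjusted p = 0.0112), and Azin1, which protects the ODC1 protein, fell with a log2 fold change of -1.25 ± 0.25. Gamt, the last enzyme of creatine synthesis, rose from 133.2 ± 17.6 to 263.2 ± 32.8 CPM (log2 fold change 0.98 ± 0.21, edgeR adjusted p = 0.0131).

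Of 36 amino acid catabolism genes, 0 rose and 3 fell, with a median of -0.47. The share that fell, 8.33%, was below the 14.8% of all genes. The 3 were Csad, which makes the taurine precursor hypotaurine (log2 fold change -2.09 ± 0.32), Dld, a shared subunit of the 2-oxoacid dehydrogenases (-0.996 ± 0.310), and Amt of the glycine cleavage system (-1.29 ± 0.41). The share that fell depended on the processing. With DESeq2 7 of the 36 fell, beside 2462 of 18363 genes, and with the length and GC correction 6 fell, beside 1665 of 13719. With upper quartile scaling 1 fell, beside 1367 of 13811, and with Xist in the model 1 fell, beside 1268 of 13811. None of the 4 histidine genes beside Hal passed; Hdc, which makes histamine, came nearest (edgeR adjusted p = 0.0512), while Uroc1, the step after HAL, had a log2 fold change of 0.41 ± 0.23. Among 19 amino acid transporters 3 rose and 2 fell. Slc3a1, the heavy subunit for cystine and dibasic amino acids, fell from 57.0 ± 23.4 to 6.43 ± 3.72 CPM (edgeR adjusted p = 0.00923). Slc1a5, a glutamine transporter, rose from 3.64 ± 1.58 to 11.9 ± 5.92 CPM (edgeR adjusted p = 0.0206), and Slc25a22, a mitochondrial glutamate carrier, rose from 262.4 ± 29.2 to 442.3 ± 28.0 CPM (edgeR adjusted p = 0.031). Slc7a9, the light subunit that pairs with SLC3A1, rose to 0.329 ± 0.070 CPM from a level below 3 counts per library in TA liver (edgeR adjusted p = 0.0176).

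Of 15 genes of the periportal zone 1 rose, Sox9 (log2 fold change 1.02 ± 0.31), which is also a bile duct gene, and 0 fell, with a median of 0.01, where 13.7% of all genes rose and 14.8% fell. Pigr was at 961.0 ± 320.3 CPM against 1761 ± 29.3 and missed the threshold (edgeR adjusted p = 0.0574), while DESeq2 called it lower. With Xist in the model Cdh1 was called higher and Ctsc lower, and Sox9 was not called. Whether the list differed from Cps1 was not tested. Bile duct markers were higher in CCNE-TA liver, with 7 of 8 called and summed levels of 253.8 to 355.4 CPM against 59.1 to 62.7. In the pericentral list 1 of 16 rose and 3 fell: Lhpp, a phosphatase, rose by 0.98 on the log2 scale, and Glul and the glutamate transporter Slc1a2 (-0.74) were among those that fell. Sinusoidal and other endothelial markers were lower, with 6 of 7 called and 85.1 to 99.4 CPM against 164.9 to 203.6. Of 7 proliferation genes all 7 rose. This was not particular to liver: their summed level was 45.9 to 136.0 CPM in CCNE-TA kidney against 17.2 to 18.5 in TA kidney. In lung it was 84.5 to 166.8 against 36.1 to 52.2, and in both tissues 0 of the 7 passed the test. The part of these cell types in the members' values was not tested.

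Among 22 regulators of urea cycle genes 0 rose and 6 fell, with a median of -0.54, which was the lowest of the lists. The share that fell was 27.3%, beside 14.8% of all genes, and 13.7% of all genes rose. Prox1, a hepatocyte homeobox factor, fell from 85.8 ± 30.2 to 20.6 ± 4.15 CPM (log2 fold change -2.06 ± 0.31, edgeR adjusted p = 0.00477). Ppara, the fatty acid sensor, fell from 317.6 ± 23.6 to 119.2 ± 27.4 CPM (-1.41 ± 0.24, edgeR adjusted p = 0.00656), and Nr3c1, the glucocorticoid receptor, fell from 77.9 ± 11.4 to 34.1 ± 2.48 CPM (-1.19 ± 0.18, edgeR adjusted p = 0.00514). The coactivator Crebbp fell with a log2 fold change of -0.95 ± 0.19. With liver TA 2 and TA 3 left out, 1 of the 26 list genes, Prox1, still passed, with the spread then taken from the CCNE-TA group alone, and with Xist in the model 16 of the 26 did.

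In kidney no member passed the test. Of the 9 members that passed the filter on low counts, all except Nags, 0 were called by edgeR and 0 had an unadjusted p under 0.05, and DESeq2 called 0. All genes together gave 0.0131% called, and 0 of the 7 proliferation genes were called at a median log2 fold change of 2.43. A missing call there therefore does not show that a member was unchanged. The log2 fold changes ran from -0.88 to 0.20, with a median of -0.06. Asl, the leading member there, was at 151.7, 292.2 and 411.3 CPM in CCNE-TA kidney and 230.1, 355.8 and 369.5 in TA kidney, with a log2 fold change of -0.16 ± 0.36. Slc25a13 (0.03 ± 0.22) and Slc25a15 (-0.03 ± 0.29) had the narrowest errors of the members there. Hal was the only member whose groups did not overlap, at 0.416 to 0.594 CPM in CCNE-TA kidney and 0.805 to 1.07 in TA kidney, against 2.68% of all genes that were lower in this way. Its log2 fold change was -0.88 ± 0.47 (edgeR adjusted p = 0.999), from 13 to 37 counts a library. Ass1 was at 0.228, 0.434 and 1.44 CPM against 0.355, 0.530 and 0.984. None of the related lists had a gene past the threshold in kidney.

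**Figure D4:**
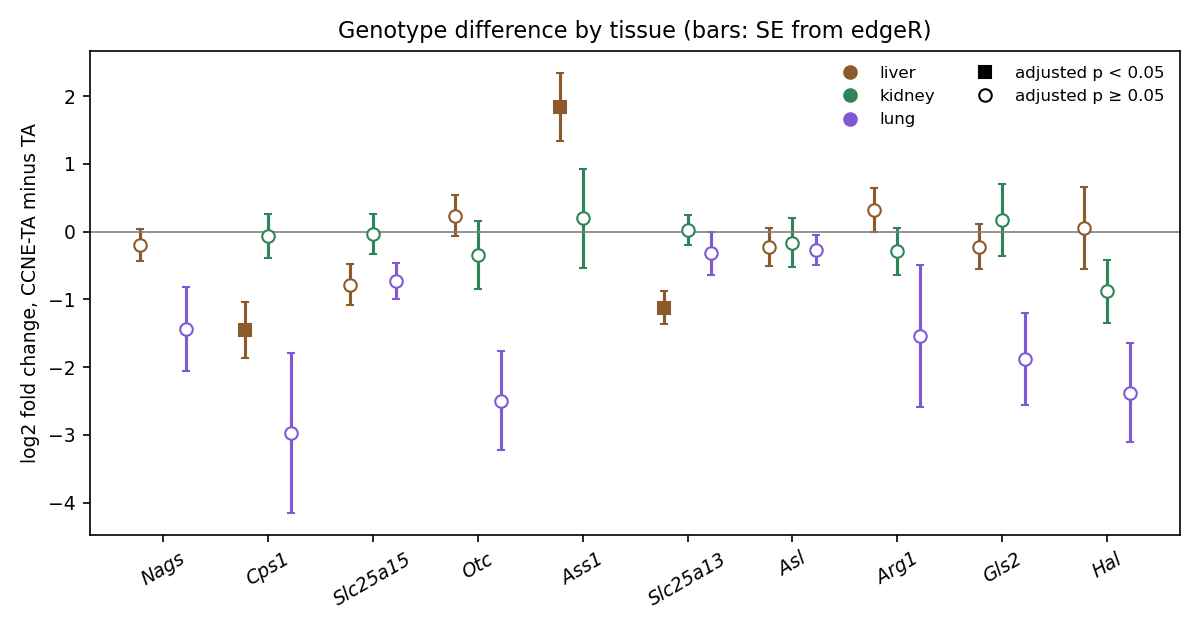
Log2 fold change, CCNE-TA minus TA, for each member in liver (brown), kidney (green) and lung (purple); points are edgeR estimates from 3 libraries against 3, bars are standard errors, filled squares have an adjusted p under 0.05, and Nags in kidney and Ass1 in lung were not tested. In liver Cps1 and Slc25a13 fall and Ass1 rises, kidney estimates run from -0.88 (Hal) to 0.20, and all 9 lung estimates lie below 0.

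In lung all 9 tested members had log2 fold changes below 0, from -2.97 to -0.27, yet edgeR called 0 of them. All genes together gave 0.00594% called. Even Ccne1, the induced gene, was not called, so a missing call does not show that a member was unchanged. An unadjusted edgeR p under 0.05 was found for 5 members. With another scaling (RLE) it was found for 5 members as well, and for 615 of the 16823 genes tested. The median over the members was -1.54, beside 0.02 over all genes. In 6 of the 9, Cps1, Otc, Nags, Slc25a15, Gls2 and Hal, every CCNE-TA library was below every TA library, which held for 4.59% of all genes. A log2 fold change under -1, also with no test, was found for 6 of the 9 and for 2.78% of all genes. Cps1 was at 13.88, 3.42 and 0.97 CPM in CCNE-TA lung and 13.91, 21.9 and 108.2 in TA lung, so its groups all but touched, and TA 3 was far above the rest. Otc was at 2.24, 0.909 and 0.683 CPM against 3.31, 4.45 and 14.02 (log2 fold change -2.49 ± 0.73, edgeR adjusted p = 1.0). DESeq2 called it (adjusted p = 0.0184), with Hal (-2.38, adjusted p = 0.0347), and the edgeR fit of all 18 libraries called Otc (adjusted p = 0.044). Without lung TA 3 the log2 fold changes of Otc, Hal and Gls2 were -1.61, -1.15 and -0.77. With CCNE-TA 1 and TA 3 both left out, edgeR called 0 of the 9 members, with a lowest adjusted p of 0.254, and their log2 fold changes ran from -3.02 to -0.02 with a median of -0.93.

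The summed level of the hepatocyte markers was also lower in CCNE-TA lung, although 0 of the 10 passed the test. All 10 of them had counts in every lung library, and their summed level was 392.0 to 752.4 CPM in CCNE-TA lung and 926.1 to 3281 in TA lung. Alb was at 203.5, 66.2 and 16.9 CPM against 265.4, 418.1 and 1402, in the same order over the 6 libraries as Cps1. Relative to Alb the lung groups of Cps1 did overlap: it had 68.2, 51.6 and 57.6 counts per 1000 Alb counts in CCNE-TA lung and 52.4, 52.5 and 77.2 in TA lung. Those ratios lie in the range of TA liver, 42.0 to 72.2, or just above it, whereas kidney had 18.9 to 25.9. Other members behaved otherwise in kidney. Per 1000 Alb counts, kidney had 15.55 to 20.31 of Arg1, 3.92 to 5.22 of Otc and 2.44 to 4.96 of Hal. Those values lie in or next to the TA liver ranges, 16.26 to 24.39, 4.30 to 8.07 and 2.48 to 6.29. Asl was far above in kidney, at 622.6 to 2806 against 7.40 to 10.36 in TA liver. Otc had 11.03, 13.7 and 40.5 counts per 1000 Alb counts in CCNE-TA lung and 12.5, 10.7 and 9.997 in TA lung, all above the TA liver range of 4.30 to 8.07, and CCNE-TA 3, with the fewest Alb counts, was far above the rest. Slc25a13 and Asl had the smallest log2 fold changes, at -0.32 ± 0.32 and -0.27 ± 0.23, and Arg1 overlapped at 17.0, 2.62 and 1.95 CPM against 7.09, 11.3 and 44.3. The overlap of Arg1 came from CCNE-TA 1. Among the CCNE-TA lung libraries this one had the highest macrophage markers and also the highest Alb, and the part of either was not tested. The log2 fold change of Arg1 was -1.54 ± 1.05 with all 6 libraries and -0.38 ± 0.98 without TA 3 (edgeR adjusted p = 0.954). It was -3.19 ± 0.91 without CCNE-TA 1 (edgeR adjusted p = 0.979) and -2.01 ± 0.30 without CCNE-TA 1 and TA 3 (edgeR adjusted p = 0.254). Some members stood higher relative to Alb in CCNE-TA lung. Slc25a15 had 57.0, 186.8 and 642.5 counts per 1000 Alb counts, against 56.0, 36.8 and 19.6 in TA lung. Asl had 122.1, 348.1 and 1397, against 85.6, 58.6 and 28.0. Slc25a13 and Arg1 also stood apart in this direction, while Nags, Gls2 and Hal overlapped. The part of hepatocyte RNA in the lung differences was not tested beyond these ratios.

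**Figure D5:**
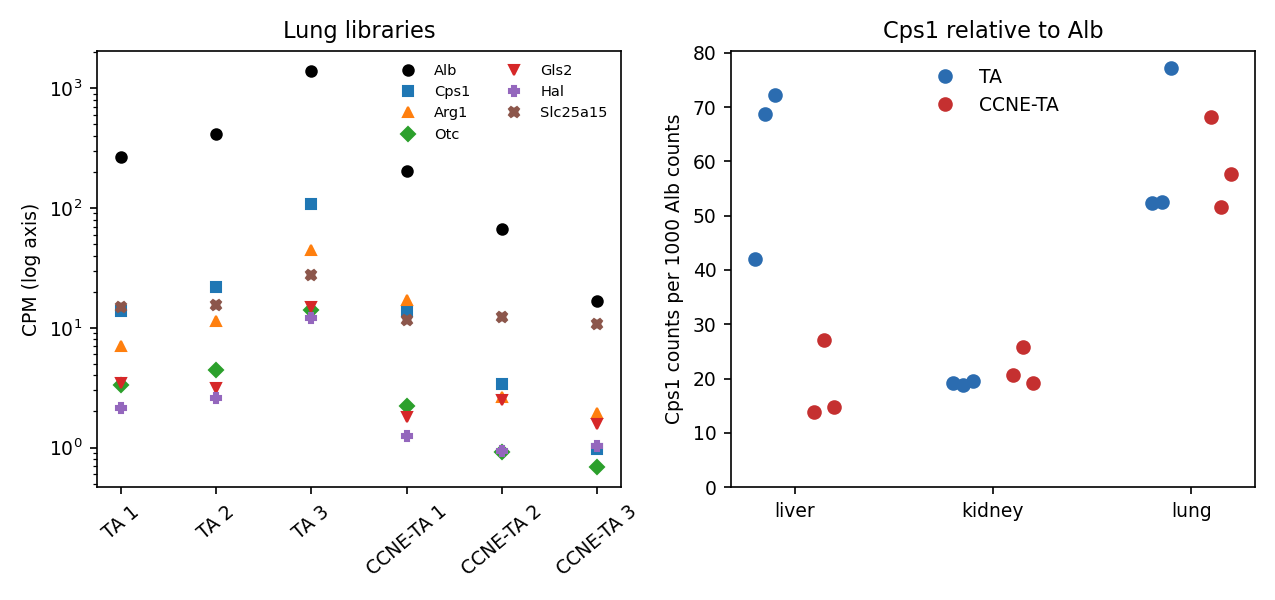
Left, CPM of Alb and 6 members in each lung library on a log axis; right, Cps1 counts per 1000 Alb counts in each library by tissue, with TA in blue and CCNE-TA in red. Cps1 follows Alb across the lung libraries, and the ratio separates the genotypes in liver (13.8 to 27.1 against 42.0 to 72.2) and not in lung or kidney.

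Whether the genotype effect differed between tissues was tested in 1 fit of all 18 libraries. Between liver and kidney 0 of 10 members differed, with 9.52% of all genes called; Slc25a13 came nearest, with a difference of -1.16 ± 0.38 on the log2 scale (edgeR adjusted p = 0.0634), and DESeq2 called it (adjusted p = 0.0377). For Cps1 the difference was -1.38 ± 1.11 (edgeR adjusted p = 0.44), so its fall in liver was not shown to differ from kidney, where it had 83 to 141 counts. Slc25a12, the paralog of Slc25a13, did differ, by -1.05 ± 0.24 (edgeR adjusted p = 0.0186). Between liver and lung 1 of 10 members differed, with 12.7% of all genes called: Otc, by 2.70 ± 0.71 (edgeR adjusted p = 0.0253), with a liver log2 fold change of 0.24 and a lung one of -2.49. Otc was not called with liver CCNE-TA 1 left out, nor with lung CCNE-TA 2 left out. The summed hepatocyte markers also differed between the lung groups, and their part in this value was not tested. Hal had 2.41 ± 0.86 (edgeR adjusted p = 0.0732), and Cps1 had 1.51 ± 1.09 (edgeR adjusted p = 0.364).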

How the data were processed

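The 18 libraries, from whole liver, kidney and lung, were made with a TruSeq v2 kit from 100 to 200 ng of column-extracted RNA, per the labels. Counts per gene symbol were deposited by the authors; per the submitters' processing notes, TopHat2 2.0.14, Bowtie2 2.2.6, featureCounts 1.4.6 and the mm10 build were used. The gene annotation, the strand setting and the treatment of reads with several alignments are not given in the sources used here.

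The counts were tested with edgeR 4.0.16 in R 4.3.3: filterByExpr, TMM scaling, robust quasi-likelihood fit, Benjamini-Hochberg adjustment over all genes tested, threshold 0.05. Genotype was tested within each tissue, tissues within the 9 TA libraries, and differences between tissues in 1 fit of all 18. Alternatives used DESeq2 1.42.0, limma 3.58.1 (voom), other scalings, no filter, a replicate block, an Xist covariate, a length and GC spline with 4 degrees of freedom, and left-out libraries. On simulated counts the fit was tested before use. Those counts held no trend with gene length and no library that stood apart, so the test does not cover these features of the data.

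Exon lengths came from GENCODE M21 (98.4% of symbols matched), copies from blastn 2.17.0 (at least 90% identity over 100 bases), start-site windows from RefSeq. Of counts from 1 to 20 in the table, 68.3% were even; the cause was not tested. A floor of 3 counts was 0.019 to 0.147 CPM over the libraries. It covers counting error only.

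The members and lists were chosen with earlier results of these data known. All members were named, with up to 4 genes of each list in liver and up to 2 in kidney and lung, in order of p, 3 paralogs, and the 5 nearest genes to Cps1 with mean log2 CPM of at least 5; a few genes that this rule names are not reported here. In kidney, libraries with the same number deviated together (r = 0.447, 0.638 and 0.474 over 13137 genes), although the labels do not say what a number marks, and the fit with the number as a block called 0 members there.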

Additional observations from a re-analysis of the deposited data

Results flagged for a closer look

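Each of these 4 results came from a test of the difference between the genotype effects of 2 tissues, in 1 edgeR fit of all 18 libraries. For Slc25a12, the aspartate-glutamate carrier that is the paralog of Slc25a13, the effect in liver minus that in kidney was -1.05 on the log2 scale (adjusted p = 0.0186), and in liver minus that in lung -1.117 (adjusted p = 0.0129). Its levels were 9.21 against 18.1 CPM in liver, 78.4 against 74.96 in kidney and 40.6 against 37.5 in lung, CCNE-TA first. Both differences use the same liver libraries.

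For Otc the effect in liver minus that in lung was 2.698 (adjusted p = 0.0253). In lung, Alb and the other hepatocyte markers were lower in the same CCNE-TA libraries, and their part in this value was not tested.

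For Ccne1, the induced gene itself, liver minus lung was 2.22 (adjusted p = 0.0316), with 286.9 ± 71.9 against 2.47 ± 0.39 CPM in liver and 88.8 ± 32.1 against 3.59 ± 2.49 CPM in lung (SD, n = 3). Within lung, edgeR did not call Ccne1 although its log2 fold change was 4.61 ± 0.67 (adjusted p = 0.897).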

How the results depend on the processing

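The alternatives gave 1109 values for single members: 1030 kept their direction and their side of the threshold, 24 lost it, 16 gained it and 39 turned their sign, 0 of these where the reported value had passed. For the 10 members in liver, 3 of which passed, 1 passed with Xist in the model, 1 with the length and GC correction, 1 in the fit of all 18 libraries and 0 with TA 1 as the only control. Leaving out 1 liver library gave 0 to 3. Over all liver genes 3942 passed; 2506 did with Xist in the model, 91 with TA 1 as the only control, and 1521 (without CCNE-TA 1) to 4582 (without CCNE-TA 2) without 1 library. Upper quartile scaling moved the median of all liver genes by 0.183 and the split from 1897 higher and 2045 lower to 2610 and 1367. In kidney 2 genes passed, 26 with DESeq2 and 1 to 2 without 1 library. In lung 1 gene passed, 187 with DESeq2, 94 in the fit of all 18, 0 with limma-voom, 0 with the replicate block and 0 to 1 without 1 library; of the members there, 2 passed with DESeq2 and 1 in the fit of all 18. For the effect in liver minus kidney, 0 members passed, 1 with DESeq2 and 0 to 1 without 1 library. For liver minus lung, 1 passed, 2 with DESeq2 and 0 to 2 without 1 library. The causes were not tested. The tissue comparisons of TA mice gave 9 to 10 members under every alternative.

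Same-numbered libraries did not pair in liver (r = 0.207, -0.017 and 0.101) or lung (r = -0.535, -0.036 and -0.607). With the replicate number as a block, 2 liver members passed, without Ass1 (adjusted p = 0.0552), 3323 liver genes, and 3 kidney genes; it changed no other member's call.

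Signs turned as follows, none of them past the threshold. In liver, Gls2 was 0.193 with TA 1 as the only control and -0.534 to 0.032 without 1 library; Hal was -0.358 with limma-voom, -0.278 with the replicate block, -0.403 with Xist and -0.597 to 0.52 without 1 library. In kidney, Ass1 was -0.029 with limma-voom, -0.041 with the block and -0.183 with Xist. Without 1 library the kidney values ran from -0.863 to 0.657 for Ass1, -0.284 to 0.128 for Cps1, -0.52 to 0.147 for Asl, -0.251 to 0.26 for Slc25a15, -0.114 to 0.222 for Slc25a13 and -0.288 to 0.564 for Gls2. In lung, Asl ran from -0.418 to 0.003 (without TA 3). For liver minus kidney, Asl was 0.097 with upper quartile scaling and -0.381 to 0.286 without 1 library, Nags ran from -0.175 to 1.052 and Gls2 from -0.776 to 0.05. For liver minus lung, Asl ran from -0.256 to 0.254, and Slc25a15 was 0.128 with upper quartile scaling and -0.415 to 0.125 without 1 library.

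Depth limits Ass1 in all tissues, and Otc, Hal, Nags and Gls2 in kidney, where they had 5 to 49 counts.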
